A study of Homo sapiens with 12 samples.

Results

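The super elongation complex (SEC) and its kinase, P-TEFb, were followed through 10 genes matched by symbol among the 60609 genes listed. They are the scaffolds AFF1 and AFF4, the elongation factors ELL and ELL2, the chromatin readers MLLT1 (the protein ENL) and MLLT3 (AF9), the kinase CDK9, the cyclins CCNT1 and CCNT2, and the P-TEFb inhibitor HEXIM1. The study examined the deubiquitinase USP7 and the polycomb complex PRC1.1 in leukemia, and described SEC proteins among the partners of the PRC1.1 subunit KDM2B. RNA was measured in K562, a human leukemia cell line of erythroid character, after 48 h with the vehicle DMSO (3 libraries) or with FT671, a USP7 inhibitor, at 10 µM (3 libraries). All libraries came from this single line, and the paper describes the RNA-seq as independent experiments.

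RNA polymerase II commonly stalls shortly after starting a transcript. P-TEFb, which pairs CDK9 with cyclin T1 or T2, releases it by phosphorylating the polymerase and the pausing factors DSIF and NELF. Much of the P-TEFb in a cell is held inactive by the 7SK small nuclear ribonucleoprotein, in which HEXIM proteins block the kinase. The SEC gathers active P-TEFb on an AFF scaffold together with an ELL factor, which speeds the polymerase, and with ENL or AF9, which bind acylated histones. In acute leukemias with rearranged KMT2A (MLL), several of these genes supply the fusion partner.

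The ENL and AF9 genes are paralogs with similar roles, and their levels lay at opposite ends of the set. The 250 bases before the annotated start of each are shown because both are rich in CpG, which is given in capitals. They are RefSeq promoter sequences on GRCh38.p14, read 5′ to 3′ on the minus strand of each gene, and neither overlaps an exon annotated in GENCODE release 44.
MLLT1, chr19:6279976-6280225: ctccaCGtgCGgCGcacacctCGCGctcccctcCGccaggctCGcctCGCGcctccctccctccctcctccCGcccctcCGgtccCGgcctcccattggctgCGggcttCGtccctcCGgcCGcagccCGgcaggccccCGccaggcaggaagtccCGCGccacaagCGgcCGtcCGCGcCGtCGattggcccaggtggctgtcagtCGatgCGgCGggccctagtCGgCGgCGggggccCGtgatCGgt
MLLT3, chr9:20622500-20622749: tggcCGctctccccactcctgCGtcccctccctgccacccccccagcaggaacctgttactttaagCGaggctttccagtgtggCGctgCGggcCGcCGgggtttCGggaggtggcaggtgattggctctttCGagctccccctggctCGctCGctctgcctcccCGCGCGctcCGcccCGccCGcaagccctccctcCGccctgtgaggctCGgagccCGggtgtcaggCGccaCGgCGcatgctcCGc
The MLLT1 sequence held 34 CpG at a GC content of 77.2%, and 6.61% of the 27305 RefSeq upstream regions of this length held as many. The MLLT3 sequence held 24 CpG at 72% GC, a number reached by 23.3% of the regions, against a median of 11. Searched on both strands, CCAAT occurred 2 times before MLLT1 and 1 time before MLLT3 and was present in 33% of all regions. The GC box GGGCGG occurred 1 time and 3 times, respectively, against 42.3% of regions with at least 1. The E-box CACGTG occurred 1 time before MLLT1, against 6.49% of regions. Of the 10 genes, 9 had a RefSeq entry, ELL2 being the gene without one. These features were not particular to the pair. CDK9 held 37 CpG, HEXIM1 31 with 2 CCAAT, and AFF4 26 with 1 E-box. CCNT1 had an entry with 24 CpG and 1 E-box and another with 0 CpG.

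In untreated cells the MLLT1 transcript was the most abundant of the set for its length. Levels are given as CPM, a gene's share of the counts of its library scaled by the TMM factors of edgeR, and, to compare genes, as CPM per kilobase of annotated exon. In DMSO, MLLT1 reached 32.2 ± 1.77 CPM per kb (SD, n = 3), followed by AFF1 with 21.2 ± 1.5 and CDK9 with 17.1 ± 0.528. CCNT1 (12.6 ± 2.11 CPM per kb) and AFF4 (12.4 ± 0.867) came next with overlapping libraries, and so did ELL (8.86 ± 0.759) and HEXIM1 (8.82 ± 0.414). ELL2 (3.41 ± 0.247 CPM per kb) and CCNT2 (2.56 ± 0.279) were the lowest genes that were clearly expressed. MLLT3 was practically silent, with 2, 2 and 0 counts in DMSO and 0, 1 and 0 counts in FT671 replicates 1 to 3. These values lay under the 3 counts taken as the floor of detection. MLLT3 did not pass the expression filter of edgeR, so that it was not tested and no fold change is given.

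In FT671, AFF1 had the highest mean with 17.4 ± 1.43 CPM per kb, ahead of MLLT1 (15.2 ± 0.628). The libraries of these genes nearly met, the lowest of AFF1 at 15.73 and the highest of MLLT1 at 15.72 CPM per kb. MLLT1 then overlapped CDK9 (13.8 ± 1.06 CPM per kb), which in DMSO had lain below MLLT1 in every library. HEXIM1 (7.97 ± 0.908 CPM per kb) lay above ELL (5.98 ± 0.453), whereas their libraries overlapped in DMSO. The plot of levels in each library shows this order.

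Expression of the 9 tested genes of the set was lower or not distinguishable after USP7 inhibition, and none of them was upregulated. EAF1, an ELL-associated gene outside the set, was upregulated and is described below. Of the 9 genes tested with the edgeR quasi-likelihood test, 6 were downregulated at an adjusted p under 0.05 (MLLT1, ELL, AFF4, CCNT2, CDK9 and AFF1), 0 were upregulated, and ELL2, HEXIM1 and CCNT1 did not pass. Without FT671 replicate 2 the number downregulated was 3 (MLLT1, ELL and AFF4), against 3195 of the 14917 genes tested in that setting. With all libraries, 26.5% of the 13895 genes tested were downregulated and 23.6% upregulated by this rule. The number of upregulated genes among the 9 was also 0 at an unadjusted p under 0.05, against 3700 of all 13895 genes. It was 0 by the DESeq2 Wald test as well, against 2725 of 31316 genes. At the adjusted p of 1e-05 used in the study's methods, only MLLT1 passed, and the background was 4.13% of genes down and 1.79% up. The 3 FT671 values lay below all 3 DMSO values in 7 of the 9 genes, against 30.3% of all genes, and above them in 0 of the 9, against 26.8%. The median log2 fold change was -0.31 over the 9 genes and -0.01 over all genes. CPM are shares of a library, so a fall in 1 transcript per cell and a change in the RNA of the cell as a whole cannot be told apart here.

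MLLT1 encodes ENL, the reader of acylated histones in the SEC, and its fold change was the farthest from 0 in the set. Its level was 152, 162 and 146 CPM in DMSO replicates 1, 2 and 3 and 73.3, 69.1 and 74.9 CPM in FT671 replicates 1, 2 and 3. The groups lay far apart, with FT671 libraries close to one another. The mean fell from 153 ± 8.41 to 72.4 ± 2.99 CPM (SD, n = 3), 2.12-fold lower (log2 fold change -1.08, SE 0.08, 95% interval -1.25 to -0.91, edgeR adjusted p = 1.53e-07). Counted from the lowest log2 fold change, it ranked 750 among the 13895 genes. MLLT1 (ENSG00000130382) lies on the minus strand at chr19:6210381-6279975 (hg38, GENCODE release 44, as all positions that follow), and no other annotated gene shares its exons.

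The AFF scaffolds hold the complex together, and both were downregulated. AFF4 (ENSG00000072364, chr5:132875395-132963634, minus strand) was measured at 137, 131 and 150 CPM in DMSO and at 100.2, 104 and 102 CPM in FT671. The mean fell from 140 ± 9.78 to 102 ± 2.15 CPM (log2 fold change -0.44, SE 0.08, edgeR adjusted p = 3.09e-04). After a correction for gene length it was smaller and still passed (-0.29, edgeR adjusted p = 0.0024). AFF1 (ENSG00000172493, chr4:86935002-87141039, plus strand), the partner of KMT2A in a common infant leukemia fusion, stood at 221, 225 and 252 CPM in DMSO and at 199.7, 172 and 199.2 CPM in FT671. The groups did not overlap for either gene, and AFF1 was downregulated as well (log2 fold change -0.29, SE 0.08, edgeR adjusted p = 0.0094). AFF1 was no longer called once fold changes were corrected for gene length (-0.13, adjusted p = 0.15) or without FT671 replicate 2 (-0.22, adjusted p = 0.078). Within libraries, the log2 ratio of AFF4 to AFF1 counts was -0.74 ± 0.04 in DMSO and -0.89 ± 0.15 in FT671, with overlapping values. This difference of -0.15 had p = 0.3 in an exact two-sided permutation test (adjusted over 5 ratios, 0.375).

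ELL, the elongation factor first known as a KMT2A fusion partner, was downregulated, while a difference in its paralog ELL2 did not pass the test. ELL (ENSG00000105656, chr19:18442663-18522116, minus strand) was found at 42.5, 47.7 and 40.5 CPM in DMSO and at 31.1, 30.3 and 26.9 CPM in FT671, with no overlap. This was a 1.5-fold lower level (log2 fold change -0.58, SE 0.11, 95% interval -0.82 to -0.35, edgeR adjusted p = 4.85e-04). For ELL2 (ENSG00000118985, chr5:95885098-95961851, minus strand) the values were 22.9, 23.6 and 26.2 CPM in DMSO and 21.1, 21.5 and 21.9 CPM in FT671. Although all FT671 libraries were lower, the fitted log2 fold change of -0.16 (SE 0.11, 95% interval -0.39 to 0.08) had an adjusted p of 0.246 with edgeR. The log2 ratio of ELL2 to ELL counts was higher in every FT671 library (-0.56, -0.50 and -0.30) than in every DMSO library (-0.89, -1.01 and -0.62). The exact two-sided permutation test of this difference of 0.39 gave p = 0.1, the smallest that 3 libraries against 3 allow (adjusted p = 0.25).

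The kinase CDK9 and the cyclin CCNT2 were also downregulated. CDK9 (ENSG00000136807, chr9:127785679-127790792, plus strand) had 49.6, 52.1 and 52.5 CPM in DMSO and 45.1, 40.8 and 38.9 CPM in FT671, without overlap (log2 fold change -0.31, SE 0.10, edgeR adjusted p = 0.0139). CCNT2 (ENSG00000082258, chr2:134918235-134959342, plus strand), the less abundant cyclin, had 20.4, 24.2 and 25.1 CPM in DMSO and 16.7, 15.3 and 18.8 CPM in FT671, again without overlap (-0.42, SE 0.13, edgeR adjusted p = 0.015). Neither call held in all of the alternatives. CDK9 was not called without FT671 replicate 2 (edgeR adjusted p = 0.0553) or 3 (0.0864), and CCNT2 without DMSO replicate 2 (0.0564), without FT671 replicate 2 (0.0698) or after the gene length correction (0.0688). CCNT1 (ENSG00000129315, chr12:48688458-48716998, minus strand), the major partner of CDK9 and the cofactor of HIV Tat, had 85, 82.4 and 110.5 CPM in DMSO and 81.7, 91.5 and 91.1 CPM in FT671. The groups overlapped, with DMSO replicate 3 the highest library. The CCNT1 log2 fold change was -0.06 (SE 0.11, 95% interval -0.28 to 0.17, edgeR adjusted p = 0.689), and its sign turned without DMSO replicate 3 (0.07) and after the gene length correction (0.07).

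Between the cyclins, the log2 ratio of CCNT2 to CCNT1 counts was -2.06, -1.77 and -2.13 in DMSO and -2.29, -2.57 and -2.28 in FT671. Every FT671 library was thus lower, by 0.39 on average, with p = 0.1 in the exact permutation test (adjusted p = 0.25). The interval of the CCNT1 fold change ran from -0.28 to 0.17 on the log2 scale, so a moderate fall or a smaller rise of CCNT1 lay within the error.

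**Figure D1:**
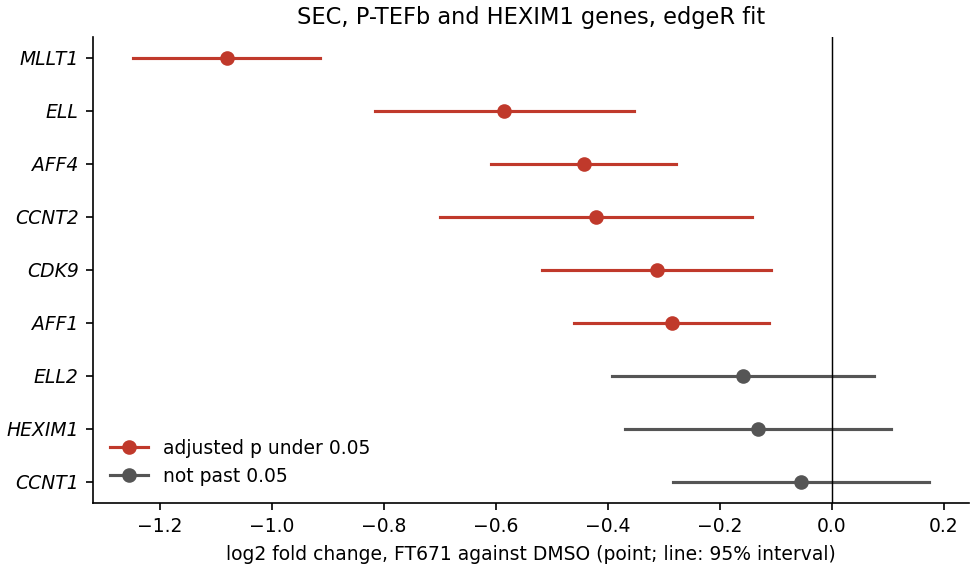
Log2 fold change, FT671 against DMSO (horizontal axis), of the 9 tested genes (vertical axis), as edgeR estimates with 95% intervals, red where the adjusted p was under 0.05. The interval of MLLT1 (-1.25 to -0.91) does not meet that of any other gene in the set, and those of ELL2, HEXIM1 and CCNT1 include 0.

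HEXIM1, which blocks CDK9 within the 7SK particle, did not pass the test. HEXIM1 (ENSG00000186834) lies at chr17:45148475-45152099 on the plus strand. Its values were 30.7, 33.6 and 31.6 CPM in DMSO and 25.1, 30.9 and 30.7 CPM in FT671. The groups overlapped, FT671 replicate 1 being the lowest library. The log2 fold change was -0.13 (SE 0.11, 95% interval -0.37 to 0.11, edgeR adjusted p = 0.341). Set against its target, the log2 ratio of HEXIM1 to CDK9 counts was -0.68 ± 0.05 in DMSO and -0.53 ± 0.27 in FT671 (exact permutation p = 0.4, also after adjustment).

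HEXIM2, the paralog that can take the place of HEXIM1, was measured at 4.29, 4.58 and 3.33 CPM in DMSO and 5.33, 3.43 and 6.43 CPM in FT671, and the difference did not pass (log2 fold change 0.33, SE 0.24, edgeR adjusted p = 0.267). The HEXIM2 to HEXIM1 ratio overlapped between treatments as well (difference 0.44 on the log2 scale, exact permutation p = 0.3, adjusted p = 0.375).

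Around HEXIM1, the other 7SK proteins moved in opposite directions. MEPCE, which caps 7SK RNA, stood at 74.2, 75.4 and 64.1 CPM in DMSO and at 40.2, 35.4 and 36.8 CPM in FT671 (log2 fold change -0.94, SE 0.10, edgeR adjusted p = 4.09e-06). LARP7, which binds the end of 7SK RNA and stabilises it, stood at 23.1, 22.4 and 25.3 CPM in DMSO and at 34, 27.4 and 35 CPM in FT671 (0.47, SE 0.12, edgeR adjusted p = 0.0047). Neither gene overlapped between the treatments. LARP7 was not called when all libraries were thinned to the smallest total (0.36, edgeR adjusted p = 0.0695). The 7SK RNA itself, RN7SK, had 0 counts in all 6 libraries, and 3 counts correspond to between 0.211 and 0.659 CPM, depending on the library.

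A further 51 genes of the elongation machinery were examined, of which 47 were tested. By edgeR at an adjusted p under 0.05, 15 (31.9%) were downregulated and 13 (27.7%) upregulated, and their median log2 fold change was 0.06. Both shares lay near those of all genes (26.5% and 23.6%), which are also the background for the counts by list given below. With the gene length correction the upregulated genes numbered 19 of the 47, against 3848 of all 13895, and with a replicate block added to it 20 of the 47, against 3919.

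EAF1, which binds ELL and stimulates it, rose from 98.4 to 143 CPM (log2 fold change 0.55, edgeR adjusted p = 1.02e-04), opposite in sign to ELL. EAF2 was measured at 2.48 and 3.4 CPM on average and did not pass (0.51, adjusted p = 0.203). AFF2, AFF3 and ELL3, the remaining AFF and ELL paralogs, were too low to be tested, at no more than 1.29 CPM in any library.

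The complex built around DOT1L, the H3K79 methyltransferase, shares ENL and AF9 with the SEC. The list of this complex together with KMT2A held 4 genes, and 3 were downregulated (75%, against 26.5% of all genes tested). DOT1L itself fell from 155 to 63 CPM (log2 fold change -1.30, SE 0.08, edgeR adjusted p = 5.45e-08), and MLLT6 from 58.3 to 32.4 CPM (-0.85, adjusted p = 6.28e-06). KMT2A, listed beside the complex, fell from 181 to 143 CPM (-0.33, edgeR adjusted p = 0.0061). The fourth, MLLT10, did not pass (-0.16, adjusted p = 0.111), although each of its FT671 libraries was lower than each DMSO library.

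Among BET proteins and factors that recruit or release P-TEFb, 3 of 6 were downregulated (50%) and 1 upregulated (16.7%). The shares of all genes tested were 26.5% and 23.6%. TRIM28, which tethers the 7SK particle at promoters, fell from 672 to 301 CPM (log2 fold change -1.16, edgeR adjusted p = 3.73e-07). PPM1G, a phosphatase that frees P-TEFb, rose from 408 to 479 CPM (0.23, edgeR adjusted p = 0.012), but was not called when no filter on low counts was used (0.0852).

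Of the other kinase genes of the elongation phase, CDK13 fell from 80.4 to 44 CPM (log2 fold change -0.88, edgeR adjusted p = 4.02e-06). Its paralog CDK12 averaged 147 and 140 CPM with overlapping groups (-0.07, adjusted p = 0.467). CCNH, the cyclin of CDK7, rose from 65.5 to 95.1 CPM (0.56, edgeR adjusted p = 4.02e-04). Of the 6 genes in this list 1 was downregulated (16.7%) and 2 upregulated (33.3%), against 26.5% and 23.6% of all genes.

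The substrates of P-TEFb at the paused polymerase showed 1 downregulated (16.7%) and 2 upregulated (33.3%) genes of 6, against 26.5% and 23.6% of all genes. NELFB fell (log2 fold change -0.54, edgeR adjusted p = 2.56e-04) and NELFCD rose (0.39, adjusted p = 4.36e-04), though they encode subunits of the same NELF complex. The PAF complex, which the SEC contacts on the elongating polymerase, had 2 downregulated (33.3%) and 1 upregulated (16.7%) gene of 6. These were led by PAF1 (-0.55, edgeR adjusted p = 1.98e-04) and SKIC8 (0.49, adjusted p = 6.05e-04).

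In the list of FACT, TFIIS, elongin and other factors, 4 of 11 were downregulated and 4 upregulated (36.4% each, against 26.5% and 23.6% of all genes). The extremes were TCEA1, which encodes TFIIS (log2 fold change -0.58, edgeR adjusted p = 1.16e-04), and ELOC, a subunit of elongin (0.40, adjusted p = 0.0083). In the little elongation complex, which joins ELL factors at small nuclear RNA genes, 1 of 3 genes passed, ZC3H8 (0.56, edgeR adjusted p = 0.004), and it did not pass without FT671 replicate 3 (0.36, adjusted p = 0.0542).

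Immediate early genes are often used to read out pause release. Of 10 listed, 7 were tested, 1 was downregulated (14.3%) and 2 were upregulated (28.6%). Among all genes tested the shares were 26.5% and 23.6%, and pause release itself was not tested. IER2 fell from 60.6 to 34.1 CPM (log2 fold change -0.83, edgeR adjusted p = 3.65e-05) and ATF3, also a gene of the stress response, rose from 16.6 to 51.5 CPM (1.62, adjusted p = 5.15e-08). JUN rose from 288 to 417 CPM (0.53, adjusted p = 4.09e-05).

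The tested genes whose levels over the 6 libraries were most like those of MLLT1 were PHLPP1, CSNK1D, UNC5B, CIC and KIAA1522. Likeness was the Euclidean distance between mean-centred log2 CPM, which was 0.05 for PHLPP1 and up to 0.1 for the others, against a median of 1.41 over all genes. Genes chosen by this distance have fold changes near that of MLLT1 by construction. Theirs lay between -1.12 (KIAA1522) and -1.02 (CSNK1D) on the log2 scale.

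Total counts were between 4555220 and 14250500 per library, with deep and shallow libraries in both groups. Of the 10 erythroid markers of K562, 9 had more than 3 counts in each library, HBE1 falling to 2 counts in DMSO replicate 3, and their summed level was 673 to 785 CPM in DMSO and 718 to 775 CPM in FT671. Of these, TAL1, KLF1, EPOR and GATA1 were downregulated, and HBG1, HBG2 and HBZ were upregulated. Of 9 markers of other cell types, MS4A1 and KRT5 were at 0 throughout, and the sum was 84.1 to 85 CPM in DMSO and 114 to 118 CPM in FT671, mainly from EPCAM and CD3D, and its part in the results was not tested.

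Some of the 10 genes, and HEXIM2, share exon bases with a gene on the opposite strand, and how strand was counted is not given in the sources used here. Beside ELL, CCNT2 and HEXIM1 the partners had few counts: 6 to 43 per library for ENSG00000268199, which shares 473 bases with ELL (140 to 614 counts), 9 to 29 for CCNT2-AS1, which shares 150 bases with CCNT2 (75 to 294 counts), and 9 to 26 for HEXIM2-AS1, which shares 520 bases with HEXIM1 (113 to 443 counts). HEXIM2 had only 18 to 72 counts itself, and shares 567 bases with HEXIM2-AS1 and 1026 bases with ENSG00000267288 (2 to 19 counts), so that the counts of its partners were not small beside its own. CDK9 shares bases on its own strand with MIR3960 and MIR2861, both at 0 counts.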

How the data were processed

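RNA-seq of K562 cells treated for 48 h with DMSO (3 libraries) or 10 µM FT671 (3 libraries) was analysed. The 6 histone ChIP-seq samples of the series were not analysed here. The authors depleted ribosomal RNA (KAPA RNA HyperPrep with RiboErase), sequenced paired ends on a NextSeq500, aligned to hg38 with STAR and deposited raw counts per gene. Versions, annotation release and strand setting are not given in the sources used here. Identifiers were matched to GENCODE release 44 (60295 of 60609; the rest held 0.0609% of counts). How reads from RNAs with many near-identical copies, such as RN7SK, were counted is not given either.

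Genes were filtered with filterByExpr, scaled by TMM and tested with the quasi-likelihood test of edgeR 4.0.16 in R 4.3.3, FT671 against DMSO, without covariates, with Benjamini-Hochberg adjustment over all 13895 genes (thresholds 0.05 and 1e-05). Fold changes are log2(FT671/DMSO). Ratios of 2 genes (0.5 added to each count) were compared by exact two-sided permutation over libraries, Benjamini-Hochberg adjusted over 5 ratios. A ratio of MLLT3 to MLLT1 had been planned and was not computed, because MLLT3 lay under 3 counts in every library. Alternatives were other normalizations and filters, DESeq2 1.42.0, loess corrections for gene length or GC content (the loess function of R), thinning, a replicate block and leaving out each library. In simulated data with the same spread for all genes, the fit recovered 136 of 181 changed genes tested, with 11 false calls. Total counts were 4555220 to 14250500 per library, and the floor of 3 counts covers counting error only.

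The members and gene lists were chosen with earlier results of these data known. Named were all 10 members, every 7SK gene, per list the largest called rise and fall, genes overlapping a member, and the 5 genes nearest to the member with the largest fall (no member rose). JUN, KMT2A, MLLT6, MLLT10, CDK12, EAF2 and the low AFF and ELL paralogs were named after their values were seen. Some listed genes are not reported here by name.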

Additional observations from a re-analysis of the deposited data

How the results depend on the processing

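MLLT1, ELL and AFF4 were downregulated at an adjusted p under 0.05 in all 13 other normalizations, filters, tests and corrections tried and without each library in turn, although MLLT1 missed 1e-05 without FT671 replicate 3 (edgeR adjusted p = 1.2e-05). The number of the 9 SEC, P-TEFb and HEXIM1 genes downregulated was 6. It was 4 with the gene length correction, 5 with that correction and a replicate block, and 1 at an adjusted p of 1e-05. Of all 13895 genes, 3687, 3325, 3402 and 574 were downregulated in these settings, in the same order. Leaving out 1 library gave between 3 and 6 of the 9. The lowest came without FT671 replicate 2, where 3195 of all 14917 genes tested were downregulated and AFF1, CDK9 and CCNT2 were lost. The cause was not tested. None of these settings gave an upregulated gene among the 9 (by edgeR or DESeq2). CCNT1 turned to a log2 fold change of 0.0714 with the gene length correction and 0.0596 with that correction and the replicate block, and ranged from -0.126 to 0.0722 with 1 library left out. It passed the test in none of them. Of the other 47 elongation genes, 5 were downregulated at 1e-05 and 0 upregulated by edgeR, against 574 and 249 of all 13895 genes. At an unadjusted p under 0.05 the numbers were 16 each, against 4099 and 3700. With the gene length correction and the replicate block 20 were upregulated, against 13 (over all 13895 genes, 3919 against 3276). Whether shared replicate numbers pair the libraries could not be decided from 3 libraries per group. The deviations of same-numbered libraries correlated by 0.115, -0.0605 and 0.14, and not every library correlated best with its own number. With a replicate block alone, 6 of the 9 genes were downregulated and, of the other elongation genes, 15 down and 15 up. In that setting 3761 of all 13895 genes were down and 3374 up. No ratio could reach 0.05 in an exact permutation test of 3 libraries against 3, and none changed its direction under the alternatives tried. HEXIM2 had 18 to 72 counts per library and an SE of 0.24 on the log2 scale, so that a difference of the estimated size, 0.33, was not detectable at this depth.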
